A study of Caenorhabditis elegans with 2 samples.

Results

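The annular furrow collagen genes of Caenorhabditis elegans are dpy-2, dpy-3, dpy-7, dpy-8, dpy-9 and dpy-10. They were taken as a list of names, not by any measured value, though earlier results of these data were known at that time. All 6 were found among the 19973 protein-coding genes of the 6 nuclear chromosomes in the WBcel235 annotation. Occupancy of SET-16, a methyltransferase that acts on lysine 4 of histone H3 and is related to mammalian MLL3 and MLL4, had been profiled by chromatin immunoprecipitation and sequencing (ChIP-seq) of whole L4 larvae, 48 hours old, grown from larvae that had been starved at L1 after bleaching. All animals were of strain RW12223, in which CRISPR had inserted TY1, EGFP and 3xFLAG tags into the endogenous set-16 gene, and chromatin sheared by sonication was pulled down with an antibody to GFP. There were 2 biological replicates of this 1 group, so no condition was compared. The material was whole animals, so a signal at an epidermal gene is an average over all tissues. No source used here gives a cell type for it, and an untagged strain was not analysed here.

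Cuticle collagens are secreted by the epidermis and cross-linked into the exoskeleton that a larva replaces at each moult. Each is built around stretches of the repeat Gly-X-Y, where X and Y are often proline. Products of these 6 genes form the narrow bands that lie in the annular furrows, the circumferential grooves of the cuticle. Animals that lack one of them are short and fat (dumpy) and lose the furrows, and they switch on osmotic, detoxification and antimicrobial genes.

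The DNA under the strongest summit of each gene is shown first, because its codons are what these places share. A summit is the base at which the authors' caller placed the top of a peak. Each line runs 5′ to 3′ on the coding strand, from 60 bases before the summit to 60 after it, from the RefSeq sequence of WBcel235, the same assembly as the ce11 build of the files. Glycine codons (GGN in the reading frame of the annotated coding sequence) are in capitals. The summit of dpy-8 was ranked but not called.
dpy-3 chrX:2145029-2145149 (minus strand): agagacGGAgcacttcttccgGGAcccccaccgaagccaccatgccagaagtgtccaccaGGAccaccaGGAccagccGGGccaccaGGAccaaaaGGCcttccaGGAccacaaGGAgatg
dpy-7 chrX:7536810-7536930 (minus strand): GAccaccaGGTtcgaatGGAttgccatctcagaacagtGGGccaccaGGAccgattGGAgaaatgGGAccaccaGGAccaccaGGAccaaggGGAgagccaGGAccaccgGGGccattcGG
dpy-10 chrII:6710737-6710857 (minus strand): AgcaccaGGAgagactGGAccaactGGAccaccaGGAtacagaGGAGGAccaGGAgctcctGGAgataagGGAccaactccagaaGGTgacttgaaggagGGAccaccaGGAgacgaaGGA
dpy-9 chrIV:258483-258603 (minus strand): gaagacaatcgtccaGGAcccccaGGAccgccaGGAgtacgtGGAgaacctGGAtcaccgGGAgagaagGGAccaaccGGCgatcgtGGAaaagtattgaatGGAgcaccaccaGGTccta
dpy-2 chrII:6715223-6715343 (plus strand): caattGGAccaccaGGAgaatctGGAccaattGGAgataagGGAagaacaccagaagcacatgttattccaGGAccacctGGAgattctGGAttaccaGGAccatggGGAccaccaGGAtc
dpy-8 chrX:5149619-5149739 (minus strand): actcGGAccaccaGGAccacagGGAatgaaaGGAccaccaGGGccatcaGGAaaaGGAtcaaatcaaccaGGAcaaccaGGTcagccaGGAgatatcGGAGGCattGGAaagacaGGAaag

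Every base of these 6 windows was coding. At the dpy-3 summit, 9 of the 40 whole codons were glycine and 16 were proline (CCN), and the window had 62.8% GC. At the dpy-7 summit the numbers were 11 and 15 of 39, with 61.2% GC. The dpy-2 window, with 11 of each among 39 codons, had 50.4% GC, the lowest of the 6. The dpy-8 window held 14 glycine codons of 40, more than any of the others, and 9 proline codons, with 52.9% GC.

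A called summit lay inside 5 of the 6 genes. None lay at their starts, where few of all protein-coding genes had one. Called means that the peak was in a thresholded list, in which the lowest score was 830 of at most 1000; the score is a scaled irreproducible discovery rate (IDR), and a higher one marks a peak that ranked more alike in the sets compared. In the conservative list, made from both libraries, dpy-2, dpy-3, dpy-7, dpy-9 and dpy-10 had a summit in the gene body or within 1000 bp of it, as did 20.4% of all protein-coding genes. The second whole-series list gave the same 5 genes, against 23.5%. All of these conservative summits were within the annotated gene span, where 13% of all genes had one, and 8.21% of the 6331 genes whose span was within the range of these 6 (1043 to 2079 bp). No member had a called summit from 1000 bp upstream to 200 bp downstream of its start, against 6.99% of all genes. None had one there in replicate 1 or replicate 2 either, against 6.74% and 6.05%. With shares this low, the lack of a start summit in 6 genes is not read as a trait of these genes. Replicate 1 gave the same 5 genes, against a background of 13.2% in the body and 20.7% with 1000 bp to each side. Replicate 2 gave 4, without dpy-10, against 10.2% and 16.9%. In both replicate lists at once, 4 of 6 had a body summit, against 8.86% of all genes. The conservative list held 2 summits in each of 3 members, dpy-2, dpy-7 and dpy-10, and at least that many in 4.42% of all genes. The lower dpy-2 summit had a signal of only 6.17 and was not called in the second list. In replicate 2 no member had 2 called summits. The share in genes of like GC content was not counted, so this count is not read as a trait of these genes.

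**Figure D1:**
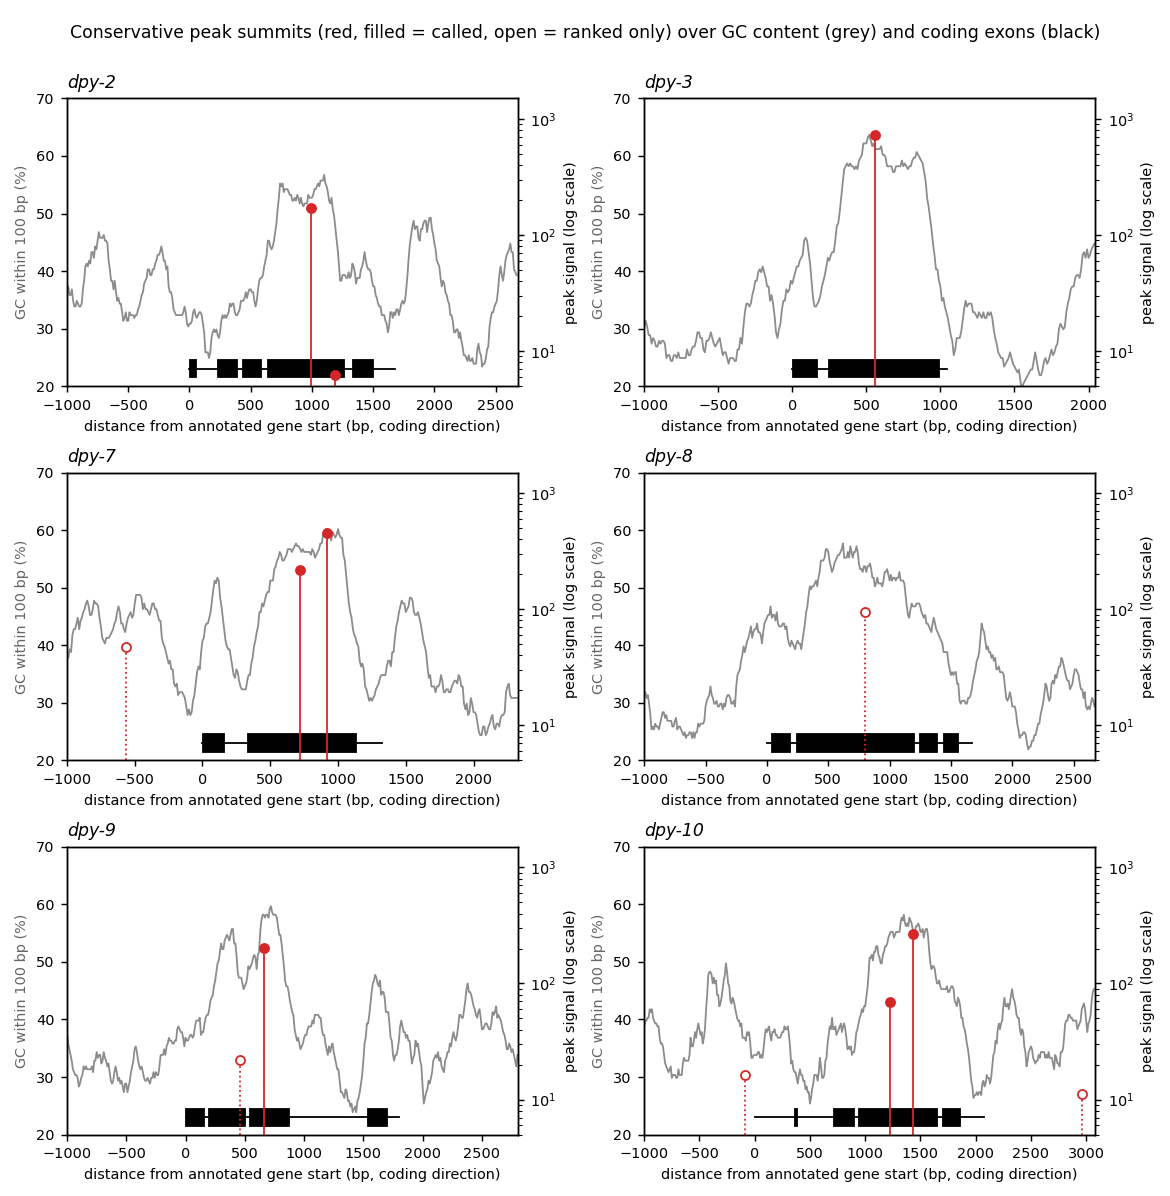
Maps of the 6 genes, with distance from the annotated start in bp along the coding direction on the x axis, GC content within 100 bp in grey (left axis, percent), coding exons in black, and conservative summits in red at their signal (right axis, log scale). Filled points are called and open points ranked only; all 8 called summits stand in the largest coding exon of their gene, and the lower of the dpy-2 summits has 47.8% GC around it.

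Signal is the authors' value for a peak, on a scale that the sources used here do not give, so levels of different genes are compared within a list. The gene with the highest signal was dpy-3 (WBGene00001065, X 2144605 to 2145647, minus strand), whose product is a furrow collagen of 2 coding exons. Its only called peak spanned X 2144648 to 2145422, most of the gene, with a summit 558 bp from the start in coding exon 2. The signal was 723 in the conservative list, 507 in replicate 1 and 222 in replicate 2. The conservative value was above 92.8% of that list, and it ranked 299 among the 2601 genes with a body summit. The replicate summits lay 4 and 6 bp from the conservative one.

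The second was dpy-7 (WBGene00001069, X 7536467 to 7537792, minus strand), whose promoter is widely used to drive transgenes in the epidermis. It had 2 called summits in 1 interval, X 7536647 to 7537197. One, 922 bp from the start, had a signal of 458 in the conservative list, 316 in replicate 1 and 149 in replicate 2, and was called in all 3. The other, 719 bp from the start, had signals of 219, 158 and 57.7, and in replicate 2 it was ranked with a score of 651 but not called. Both lay in coding exon 2, of 798 bp. A weaker ranked summit 562 bp upstream of the start, within the neighbouring gene glb-16, had a conservative signal of 47.1 and a score of 363, and was not called in any list. It was ranked in replicate 2 and not in replicate 1.

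The genes dpy-10 and dpy-2 are neighbours on chromosome II, transcribed away from each other with starts 2065 bp apart. No summit was called in the DNA between them. In dpy-10 (WBGene00001072, II 6710149 to 6712227, minus strand), 2 summits were called in coding exon 3, at 1430 and 1226 bp from the start, with conservative signals of 267 and 69.3. Replicate 1 had both, with signals of 194 and 36.7. Replicate 2 had instead 1 ranked summit between them, 104 and 100 bp away, with a signal of 77 and a score of 463, so of the replicate lists only that of replicate 1 called dpy-10. The predicted gene T14B4.19 overlaps the 5′ part of dpy-10, and neither called summit lies within it. A summit 85 bp upstream of the annotated dpy-10 start was ranked in the conservative list with a signal of 16.4 and a score of 88, and was in neither replicate list. Another ranked summit, 2963 bp from the start and so beyond the end of the gene, had a signal of 11.2 and was called in no list.

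In dpy-2 (WBGene00001064, II 6714292 to 6715971, plus strand), the main summit lay 991 bp from the start in coding exon 4, of 623 bp. Its signal was 171 in the conservative list, 85.7 in replicate 1 and 85.3 in replicate 2. It was called in all 3 lists, near the middle of the conservative list (50.3% of peaks were lower) and below the middle in each replicate (42.7% and 41% were lower). It stood at one of the gaps between Gly-X-Y stretches. A second conservative summit, 1190 bp from the start, had a signal of 6.17, with only 0.242% of the list lower, and appeared in neither replicate.

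The collagen gene dpy-9 (WBGene00001071, IV 257403 to 259204, minus strand) had 1 called summit, 661 bp from the start in coding exon 3, of 332 bp. The conservative signal was 201, with 137 in replicate 1 and 69.3 in replicate 2. The replicate 2 summit lay 49 bp nearer to the start. Its place differed between the lists: 63% of replicate 1 peaks were lower and 20.6% of replicate 2 peaks. A weaker summit 460 bp from the start, in coding exon 2, was ranked in the conservative list with a signal of 21.9 and a score of 152, and was not called. Coding exon 3 is the one that the annotation shortens in the second dpy-9 transcript.

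The exception was dpy-8 (WBGene00001070, X 5148804 to 5150476, minus strand), the member with the longest coding sequence, 1356 bp. The conservative ranked list had 1 summit in it, 797 bp from the start in coding exon 2, with a signal of 94.3 and a score of 577. That signal was higher than 13.5% of the called peaks, and the call was missed on the score. Replicate 1 ranked 2 summits, with signals of 60.7 and 45.4 and scores of 158 and 204. Replicate 2 ranked none within 1000 bp of the gene. All 6 members had a ranked conservative summit in the body, as did 35.2% of all genes, and 45.7% had one when 1000 bp to each side were counted. At the start, dpy-7 and dpy-10 had a ranked one, against 25.4% of all genes.

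**Figure D2:**
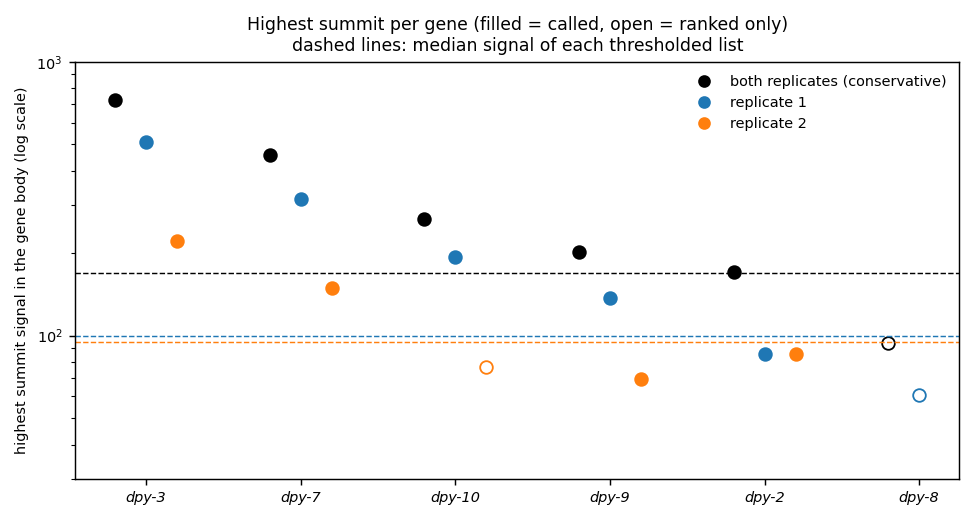
Highest summit signal in the body of each gene (y axis, authors' scale, log axis) in the conservative list and each replicate list, genes ordered by conservative signal; filled points are called, open points ranked only, and dashed lines are the median signal of each thresholded list. Only dpy-3 and dpy-7 are above the median of all 3 lists, and dpy-8 has no point for replicate 2.

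The order of the genes held at the top and not below it. In the conservative list and in replicate 1 it ran dpy-3, dpy-7, dpy-10, dpy-9, dpy-2. In replicate 2 dpy-3 and dpy-7 again came first, followed by dpy-2 at 85.3, dpy-10 at 77 and dpy-9 at 69.3. The order of those 3 therefore differed between the replicates. Each gene's highest summit was also placed by the percent of its replicate's thresholded list with a lower signal, which does not depend on the scale. It does depend on where each list was cut, and the lists held 5876 and 4377 peaks. The places in replicates 1 and 2 were 93.4% and 87.5% for dpy-3 (SD 4.17 percentage points, n = 2) and 85.8% and 76.5% for dpy-7 (SD 6.58). They were 42.7% and 41% for dpy-2 (SD 1.2) and 63% and 20.6% for dpy-9 (SD 30). For dpy-10 the places were 74.4% and 32.1%, the second for a summit that was ranked but not called. The dpy-3 and dpy-7 places did not overlap each other or those of dpy-2, dpy-9 and dpy-10. The dpy-10 place in replicate 1 was close to the lower dpy-7 place. Both dpy-2 places lay between the dpy-9 ones. No test was made of these differences.

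The 6 genes shared features of collagen coding sequence, which follow in part from their choice as collagens. The median share of glycine codons was 20.1% in these genes and 20.8% in the 156 numbered col collagen genes. Glycine made up 15.5% (dpy-8) to 21.4% (dpy-7) of codons and proline 13.5% (dpy-8) to 23.8% (dpy-3). Stretches of at least 3 repeats of a glycine codon followed by any 2 codons covered 33.2% of codons in dpy-8 and 51.7% in dpy-3, with the longest running for 20 to 22 repeats in all 6 genes. Within these stretches GC content was 56% (dpy-2) to 60.5% (dpy-3), and in the rest of the coding sequence 42.6% (dpy-2) to 53.4% (dpy-3). At the last position of the codons within the stretches it was 12% (dpy-2) to 21% (dpy-9). GGA was the commonest glycine codon, with 67.6% (dpy-7) to 90.2% (dpy-3) of the total, and CCA made up 76.4% (dpy-9) to 90.9% (dpy-10) of proline codons. The GGA and CCA shares of other genes are not given here, so these are not read as traits of furrow collagens. The coding sequences were otherwise far from identical. Over 15 pairs, identity in global alignments ran from 38.1% (dpy-3 and dpy-8) to 54.1% (dpy-2 and dpy-10). Every run of 36 bases within 100 bp of the 6 strongest summits occurred once in the genome.

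The place of the called summits within the coding exons was read in the 5 called genes. All 8 were in the largest coding exon of the gene, and 6 were in a Gly-X-Y stretch. The 8 include the weak dpy-2 summit that was in neither replicate. The largest exon held from 332 of 945 coding bp (dpy-9) to 798 of 954 (dpy-7). In dpy-9 it was little longer than coding exon 2, of 301 bp. In dpy-3 and dpy-7 it held most of the coding sequence. Gly-X-Y stretches covered a median of 47.3% of codons over the 6 genes, taken over the whole coding sequence. The share within the largest exon alone was not counted, so 6 of 8 is not read as an excess. Of all 5795 conservative summits, 45.7% were in any coding exon. Their shares in largest coding exons and in Gly-X-Y stretches were not counted. GC content within 100 bp of the 8 summits ran from 47.8% to 61.7% with a median of 56.5%, beside 54.7% for all conservative summits and 37.8% over all positions of the 6 genes with 1000 bp to each side. In the 5 called genes the strongest summit stood at most 109 bp from the point of highest GC in the gene, and in dpy-8 the ranked summit stood 175 bp from it. The start windows were poorer in GC: the highest value within 100 bp of any point ran from 41.8% in dpy-9 to 52.7% in dpy-7. Whether this bears on the lack of called start summits was not tested.

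Calls in this series were more frequent in genes with higher GC content, so the members were set beside genes of like composition. Read every 25 bp, the highest GC content in the gene body was 63.2% in dpy-3, 60.7% in dpy-7, 58.7% in dpy-9 and 58.2% in dpy-10. It was 57.7% in dpy-8 and 56.7% in dpy-2. Each was above at least 90.4% of all genes, read in the same way (median 47.8%). Between the points read, GC content reached 63.7% in dpy-3 and 59.7% in dpy-9. Among the 610 genes with 60 to 65%, 93.3% had a called body summit (exact binomial interval 91 to 95.1), and both members there had one. Among the 1965 genes with 55 to 60%, 65.2% had one (interval 63.1 to 67.3), and 3 of the 4 members there had one. The share of members with a called summit is thus near that of genes with the same GC content and is not a result about furrow collagens. In replicate 1 the shares were 68.9% and 96.1%, with the same members called. In replicate 2 the lower class had a share of 47.4%, and 2 of the 4 members, dpy-2 and dpy-9, were called, and the higher class had a share of 89%, with both members called. The uncalled dpy-8 had a higher GC maximum than the called dpy-2.

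**Figure D3:**
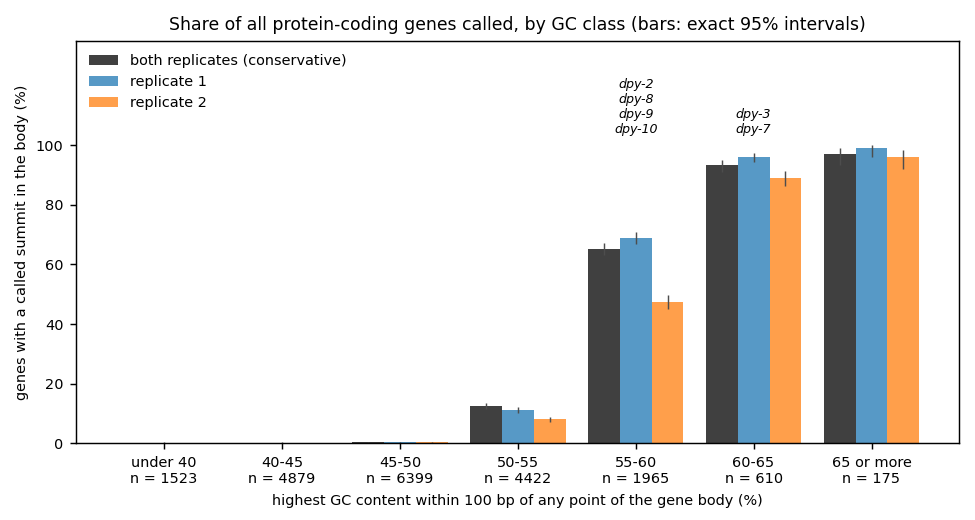
Share of all protein-coding genes with a called summit in the body (y axis, percent) by the highest GC content in the body (x axis, percent), for the conservative list and each replicate, with exact 95% binomial intervals and the furrow collagens named above their class. The share in the conservative list is 65.2% in the class that holds 4 members and 93.3% in the class that holds dpy-3 and dpy-7.

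The ratio of the replicate 1 signal to the replicate 2 signal varied among the furrow collagen summits. Since the scales of these lists are not given, a ratio is read only against those of other peaks. Across 5343 conservative peaks with a ranked summit within 100 bp in both replicates, the median ratio of replicate 1 to replicate 2 was 1.3. It was 2.29 at dpy-3, 2.12 and 2.74 at the dpy-7 summits 922 and 719 bp from the start, and 1.97 at dpy-9. At dpy-2 it was 1, and at the weaker dpy-10 summit, 1226 bp from the start, it was 0.476. That dpy-10 value rests on a match at the limit of 100 bp. The replicate 2 summit was the only one in the dpy-10 body and lay between the 2 called ones. The stronger dpy-10 summit was 104 bp from the same replicate 2 summit and so was not matched. Against it the ratio would be 2.52, so 0.476 may not compare like summits. Over all matched peaks the median ratio was 0.705 where GC content at the summit was under 50%, 0.987 at 50 to 55%, 1.63 at 55 to 60%, 2.02 at 60 to 65% and 1.67 at 65% or more. In the classes that hold furrow collagen summits, the quartiles were 0.691 and 1.39 at 50 to 55%, 1.15 and 2.1 at 55 to 60%, and 1.75 and 2.33 at 60 to 65%. The dpy-2, dpy-3 and dpy-9 values, and that of the stronger dpy-7 summit, were within the quartiles of their class. The weaker dpy-7 summit was above them. The value for the weaker dpy-10 summit, at 55.2% GC, was below them, but rests on that doubtful match. The part of GC content in the ratio was not tested. On the common set of matched peaks, dpy-3 stood above 92.8% of peaks in replicate 1 and 89.9% in replicate 2, whereas dpy-9 stood above 61.8% and 38.5%. There the stronger dpy-7 summit stood above 84.7% and 81.3%, and the main dpy-2 summit above 44.1% and 54.1%. The dpy-2 places were thus less alike on this set than in the replicate lists.

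**Figure D4:**
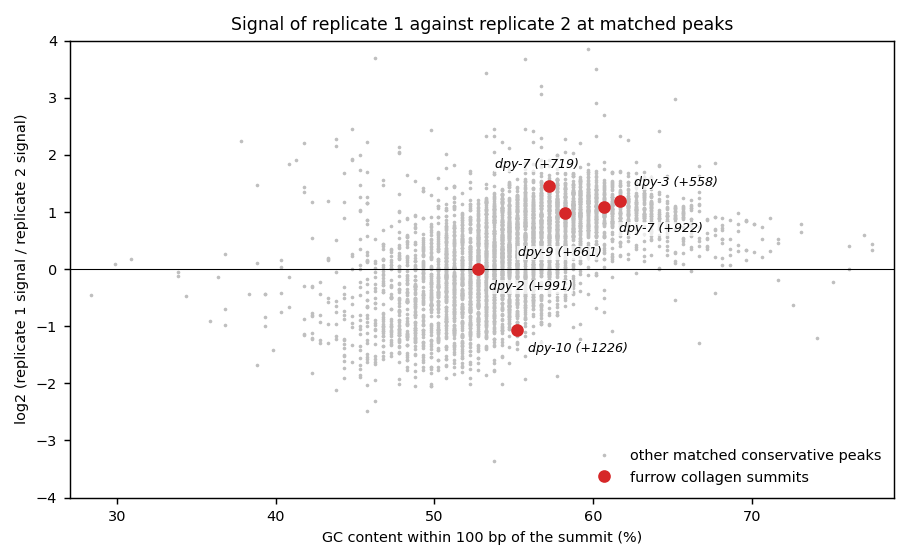
Log2 ratio of the replicate 1 signal to the replicate 2 signal (y axis) against GC content within 100 bp of the summit (x axis, percent) for conservative peaks matched in both replicates, with the furrow collagen summits in red and labelled by distance from the gene start in bp. The dpy-3, dpy-7 and dpy-9 points are above 0, dpy-2 is at 0.01, and the weaker dpy-10 summit, matched at 100 bp to the lone replicate 2 summit, is at -1.07.

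Other cuticle collagen genes were called in the same place. Of 156 col genes, the large numbered class, 132 had a called summit in the body (84.6%) and 8 at the start. Of 14 body shape and blister collagen genes, such as sqt-3, dpy-4 and dpy-13, 13 had one in the body and 0 at the start. Among col summits in the body, 95.2% were in coding exons and 74.2% in a Gly-X-Y stretch. The share in a stretch was 75% for the furrow collagens (6 of 8) and 84.2% for body shape and blister genes (16 of 19). Over the whole coding sequence, such stretches covered a median of 51.2% of codons in col genes, 47.3% in furrow collagens and 49.5% in body shape and blister genes. Their share within the exons that hold the summits was not counted. The median signal over the 5 called furrow collagens was 267, against 871 for called col genes, 489 for called body shape and blister genes and 206 for all genes with a body summit. Even dpy-3 was above only 52 of the 132 called col genes, and dpy-2 was above 7.

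The GC content of the 3 kinds of collagen gene differed in the same order. The median of the highest GC content in the body was 58.5% for furrow collagens, 60.2% for body shape and blister genes and 63.7% for col genes. At 55 to 60%, 25 of 32 col genes were called with a median signal of 296, against 3 of 4 furrow collagens with 201. In that class the median was 228 for the 5 called body shape and blister genes and 182 for all called genes. At 60 to 65%, 51 of 56 col genes were called with a median of 800, against 590 for dpy-3 and dpy-7. There it was 573 for the 7 called body shape and blister genes and 485 for all called genes. Within a GC class the furrow median was thus below that of col genes and above that of all genes. Beside body shape and blister genes it was lower at 55 to 60% and higher at 60 to 65%. These furrow medians are of 3 and 2 genes, and single members differ. In their classes dpy-2 (171) and dpy-7 (458) were below the median of all called genes. No test was made of these differences. The furrow values lay within the col range in both classes, 92.7 to 588 and 137 to 1464. The highest col signals were 1902 at col-107, 1678 at col-93 and 1631 at col-130. In the body shape and blister list they were 1925 at sqt-3, 1118 at dpy-4 and 1010 at dpy-13. The 1 uncalled gene of that list, bli-1, a collagen of the blister class, had a highest GC content of 57.7% and a ranked signal of 104, next to dpy-8.

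**Figure D5:**
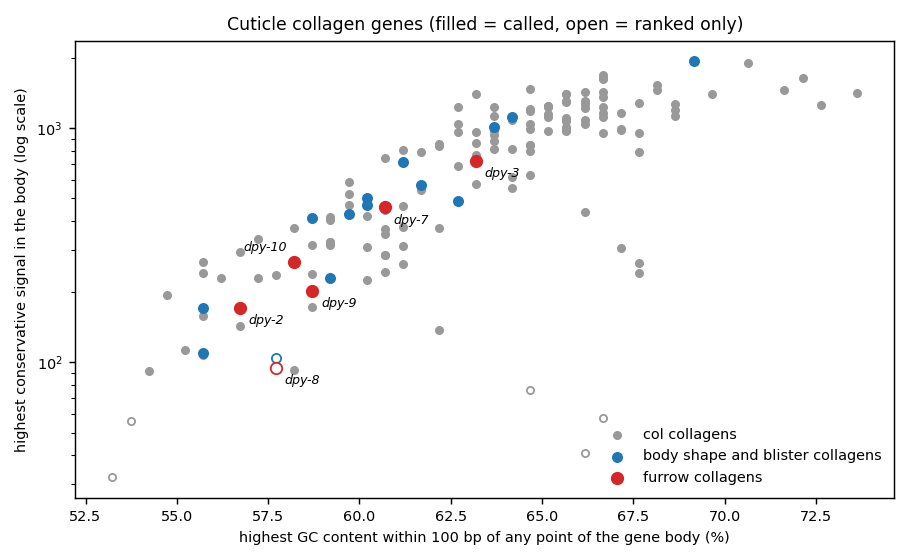
Highest conservative signal in the gene body (y axis, log scale) against the highest GC content in the body (x axis, percent) for furrow collagens in red, body shape and blister collagens in blue and col genes in grey; filled points are called, open points ranked only, and 19 col genes with no ranked body summit are not drawn. The furrow collagens lie between 56.7% and 63.2% GC, with dpy-8 beside bli-1.

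Lists of genes that act on or with the furrow collagens were counted in the same way. Of 13 genes that modify, process or cross-link collagen, 4 had a called summit in the body or within 1000 bp, beside 20.4% of all genes. They were pdi-2, a protein disulfide isomerase that serves prolyl 4-hydroxylase (signal 1352), the prolyl 4-hydroxylase gene phy-3 (433), the proprotein convertase gene bli-4 (127) and the prolyl 4-hydroxylase gene dpy-18. Of 8 genes for epidermal transcription factors, 4 had one. The strongest were lin-29, which directs the larva-to-adult switch in the epidermis (382, outside the gene body), the GATA factor elt-3 (376) and the moulting cycle receptor nhr-23 (365). Of 7 genes known to be induced when furrow collagens are lost, only gpdh-1 had one (311), a glycerol synthesis gene. In each of these lists the called genes had a higher median GC maximum than the others, 59.5% against 47.8% in the first and 60.7% against 52.7% in the second for body summits.

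The genes nearest to dpy-3 in signal were unc-34, bli-6 and shl-1, by Euclidean distance over the log10 highest ranked signals of the 2 replicates, among 8379 genes with a ranked summit in both. The distances were 0.0114, 0.0131 and 0.0131. The signals were 497 and 218 at unc-34 in replicates 1 and 2, and 515 and 216 at bli-6. Signals were read in the body or within 1000 bp of it, so a summit can count for neighbouring genes. The values of shl-1, which is also on chromosome IV and had no called summit in its body, equal those of bli-6. It may therefore not be a separate match.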

How the data were processed

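ChIP-seq peak lists of 2 replicates of 1 group were analysed, 8 in all. Each replicate had 1 ranked and 1 thresholded list, and both libraries together gave 2 such pairs. Per the deposited readme, the authors made them on ce11 by comparing filtered alignments with a control. The aligner and its version, and the peak caller, were not given in the sources used here. The deposited peak signal is as the authors' caller gave it, and the deposited score is the scaled IDR. Read depth is unknown, as the files hold no read counts. The conservative thresholded list held 5795 peaks, the second whole-series list 6905, replicate 1 5876 and replicate 2 4377.

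A summit was the start column plus the summit offset. Genes came from Ensembl release 115 and sequence from RefSeq, both WBcel235. GC content was taken within 100 bp of a point. Its highest value was read every 25 bp along a gene body and at every base of a start window. A Gly-X-Y stretch was at least 3 successive repeats of GGN followed by any 2 codons, in the transcript with the longest coding sequence. Coding sequences were aligned globally with Biopython 1.88 (match 1, mismatch -1, gap opening -4, gap extension -0.5). Intervals are exact 95% binomial (Clopper-Pearson) and cover counting error only. Counting was tested on simulated summits. Python 3.11.15, NumPy 2.4.6 and SciPy 1.17.1 were used.

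The members, the gene lists and the named genes (all members, up to 3 of highest signal in each list, and the 3 nearest to the strongest member) were chosen with earlier results of these data known. The dpy-18 and bli-1 genes, the GC classes and the span range were added after values were seen. No set test was made, and the members are not replicates of a condition.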

Additional observations from a re-analysis of the deposited data

How the results depend on the processing

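No paired analysis was possible because both replicates belong to the same group. Of 57 alternative values, 33 stayed within 1.5 times the count or within the replicate spread, 24 moved and 0 reversed. The 5 members with a summit in the locus stayed 5 with the second list, the peaks above the median signal, flanks of 0, 500 and 2000 bp, interval overlap and assignment to the nearest gene only. Among the peaks above the median signal, dpy-2 was kept narrowly, with a signal of 170.8 against a median of 169.8. With replicate lists alone the number ran from 4 to 5, and with the ranked list it was 6. Summits at member starts stayed at 0, also with a window of 2000 bp before to 500 bp after, except for 2 in the ranked list. The share of all genes with a summit in the locus moved to 12.3% with the peaks above the median signal, 45.7% with the ranked list and 13% without flanks, and ran from 16.9% to 20.7% over the replicate lists. The median GC content at member summits was 57.2% with the second list, 57.7% with the peaks above the median signal, 53.7% with the ranked list, 56.9% within 50 bp and 53.8% within 250 bp, and 56% to 56.2% in the replicate lists. The causes were not tested. Replicates of unknown depth limit what can be said of the uncalled peaks of dpy-8 and, in replicate 2, of dpy-10.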

Other observations

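The second conservative summit of dpy-2, with a signal of 6.17, carried the highest score, 1000, in the conservative list and a score of 65 in the second ranked list, where it was not called. It was 1 of 51 conservative peaks with a signal below 10, all of which overlapped a conservative peak of higher signal, and 34 of which had a score of 1000.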
